A study of Bos taurus with 32 samples.

Results

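The miR-204 family on this bovine array consists of bta-miR-204 and bta-miR-211, microRNAs (miRNAs, short RNAs that repress messenger RNAs) known to share a seed, the stretch that pairs with targets. They were 2 members beside 670 other miRNAs on the array. Both were taken by name, and miR-204 was selected on its higher level in subcutaneous fat in these same arrays. Its difference between the fat depots is therefore given below as a description, without a test, whereas its response to diet was not used for the choice and was tested.

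The fat came from crossbred Hereford and Aberdeen Angus steers, 8 fed a barley-based control diet and 8 fed a high fat diet in which flaxseed replaced part of the barley. From each animal, subcutaneous fat (backfat) and visceral fat (taken around the kidney) were collected at slaughter, giving 4 groups of 8 arrays. The high fat diet thus differs from the control diet in flaxseed as well as in fat. All animals were castrated males of one cross, fed until slaughter.

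MiR-204 is known to bind the messenger RNA of RUNX2, the transcription factor that starts bone formation, and in precursor cells it favours fat over bone. MiR-211 has the same seed and is best known from pigment cells. In the RefSeq annotation of the cattle genome ARS-UCD2.0, MIR204 lies within the span of TRPM3 and MIR211 within that of TRPM1, 2 related ion channel genes.

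The arrays of the diets differed strongly in brightness. Summed intensity ran from 26021 to 79290 on control arrays and from 96888 to 366714 on high fat arrays. Each group occupied a slide of its own, and each diet a scanning session of its own, so group and slide, and diet and session, cannot be told apart. Intensities were therefore divided by each array's 75th percentile over the 91 miRNAs detected on all 32 arrays, and are given as scaled log2 values. More miRNAs of all kinds were detected on high fat arrays. The mean number per array was 150.6 in control subcutaneous and 137.8 in control visceral fat. It was 241.1 in high fat subcutaneous and 208.1 in high fat visceral fat. Whether the marker counts below differ between the diets beyond this general gain was not tested. Of the adipocyte marker miRNAs, 5 of 6 were detected on at least 1 array in each control group, where miR-193b was not. In each high fat group 6 of 6 were. On all 8 arrays of the group, 3 of 6 were detected in each control group and 5 of 6 in each high fat group. Markers of kidney were not detected on any control array. In each high fat group 3 of 3 were detected on at least 1 array and 1 of 3 on all 8. Their summed scaled intensities there were 0.0139 to 0.0379. Of 6 skin epithelium markers on the array, 1 was detected on some array of high fat visceral fat and 0 in each other group. Of 7 muscle markers, 2 were detected on some array of control subcutaneous fat and 4 in each other group. Of 6 blood cell markers, 3 were detected in each control group, 6 in high fat subcutaneous and 4 in high fat visceral fat. The subcutaneous sample of control steer 108 went against its label. Its miR-196a was at a scaled log2 intensity of -2.43, within the -3.46 to -1.68 of the visceral samples, while the other 15 subcutaneous samples lay at or below -6.04, 11 of them at the floor of -7.22 set for dim values. The spread of the scaled miR-204 levels, the diet difference of the totals and the correlations that use this sample are given with and without it. So is the depot difference. The change of the depot difference is given without it by the sum of probes. Distances to the median, permutation tests and the other scalings of miR-204 are given only with it.

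MiR-211 was not detected on any array, so it has no measured level and no comparison. It was detected on 0 of 32 arrays and is listed at 0 on all of them in the deposited normalized values. A single spot of its 20 was well above background on 3 arrays, those of control visceral fat from steers 308 and 410 and of high fat subcutaneous fat from steer 303. The summed signal of its 3 probes was between 1.57 and 4.35 in control subcutaneous fat, 2.09 and 5.70 in control visceral fat, 1.70 and 3.87 in high fat subcutaneous fat, and 1.33 and 4.21 in high fat visceral fat. The groups overlapped throughout. The findings on the family are thus those on miR-204, which was detected on 32 of 32 arrays.

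The deposited total of miR-204 did not hold the same probes on every array. The array carries 2 probes for miR-204 with 10 spots each, and the brighter one gave 71.0 to 82.8% of their sum. On 25 arrays the total was the sum of both probes. On the other 7, all from control visceral fat, it equalled the brighter probe alone, within 1%. Only steer 405 of that group had a total of both probes. On these 7 arrays the total was 71.0 to 82.0% of the sum of both probes, so that it was lower there than a sum made in the same way on every array. Between 3 and 10 of the 20 miR-204 spots were well above background on them. The dimmer probe gave only 1.58 to 4.36 on these 7 arrays. In control visceral fat the summed probes of the undetected miR-211 gave 2.09 to 5.70. What the dimmer probe adds to the sum there is thus no higher than the signal of an undetected miRNA. Of the 91 miRNAs detected on all arrays, 29 had such a partial total on some control visceral array and 14 on 4 or more of them. These counts were 25 and 4 in control subcutaneous fat, 4 and 3 in high fat subcutaneous fat, and 11 and 4 in high fat visceral fat. The differences of miR-204 below are therefore given with the total as deposited and with the sum of all probes of each miRNA, a setting chosen after seeing the data.

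**Figure D1:**
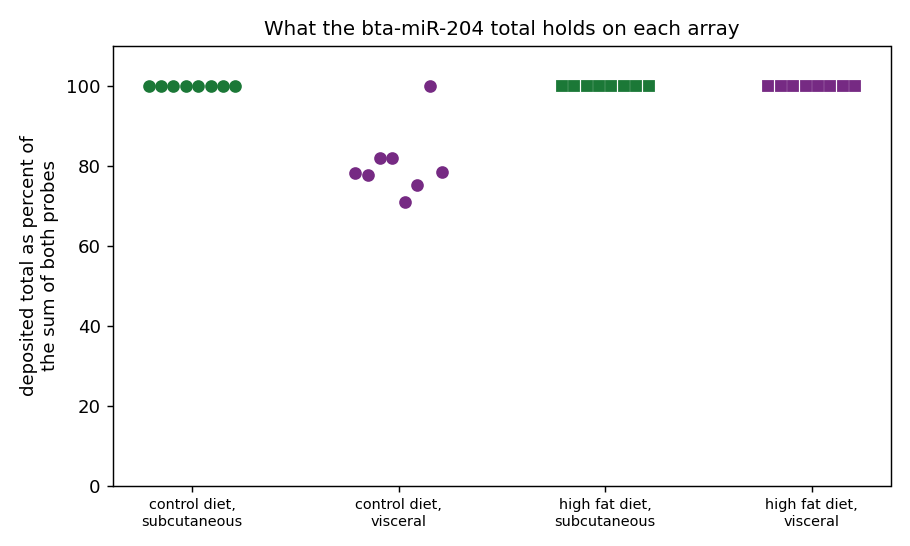
The deposited total of miR-204 as a percent of the sum of its 2 probes (vertical axis) on each array, by group (circles, control diet; squares, high fat diet). All arrays sit at 100% except 7 of the 8 from control visceral fat, between 71.0 and 82.0%.

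In control subcutaneous fat the intensity before scaling was 20.6 at the lowest, 48.0 at the median and 105 at the highest. In control visceral fat these values were 5.66, 11 and 51.1. In high fat subcutaneous fat they were 255, 373 and 577, and in high fat visceral fat 53.1, 103 and 221.5. No array of subcutaneous or visceral fat from the high fat diet was as dim as any control array of the same depot.

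After scaling, the diets came close together. The scaled log2 intensity was -2.44 ± 0.512 (SD, n = 8) in control subcutaneous fat, from -3.61 through a median of -2.33 to -1.86. It was -2.26 ± 0.229 (SD, n = 8) in high fat subcutaneous fat, from -2.52 through -2.32 to -1.89. The groups overlapped. Without steer 108 the control samples ran from -2.51 to -1.86 with an SD of 0.210, close to the spread of the high fat samples. In control visceral fat it was -3.90 ± 0.75 (SD, n = 8), from -4.69 through -3.92 to -2.26. In high fat visceral fat it was -3.25 ± 0.325 (SD, n = 8), from -3.61 through -3.34 to -2.65. With the sum of both probes control visceral fat was at -3.58 ± 0.645 (SD, n = 8), from -4.33 through -3.57 to -2.26, and the other groups did not move. Without steer 405 the control visceral SD was 0.377 by the totals and 0.389 by the sum of probes. The order of the means was high fat subcutaneous, control subcutaneous, high fat visceral and control visceral fat, by either measure. Since whole tissue was measured, fewer cells with miR-204 and less miR-204 per cell cannot be told apart.

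**Figure D2:**
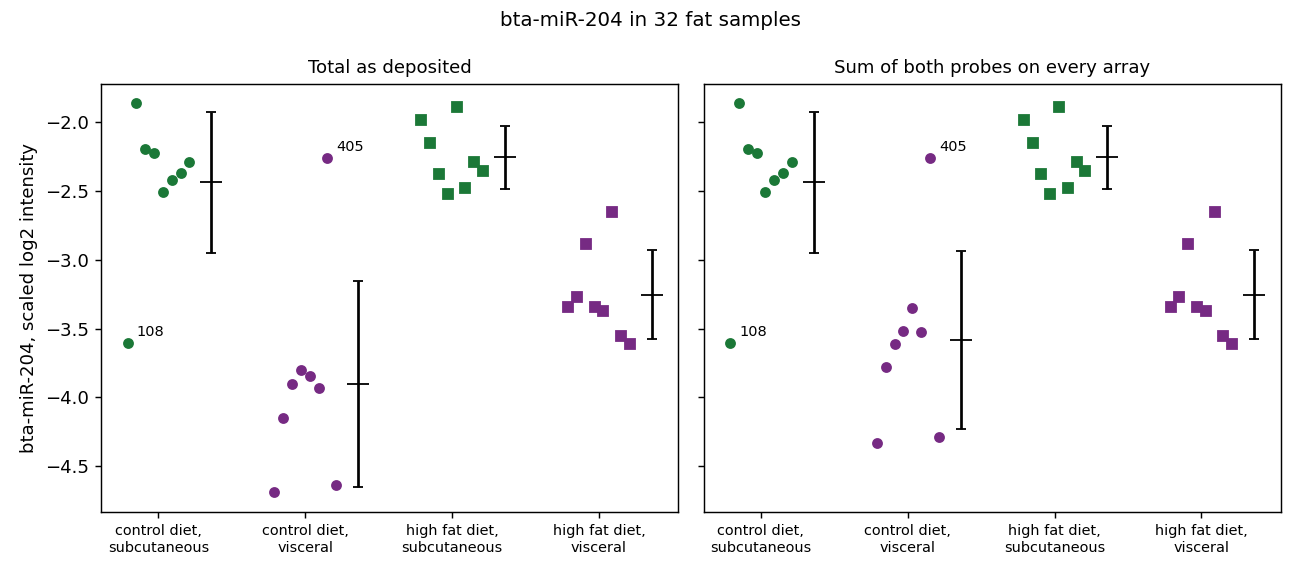
Scaled log2 intensity of miR-204 (vertical axis) in each sample of the 4 groups, from the deposited total (left) and from the sum of both probes (right); bars are the mean ± SD of 8 samples, and steers 108 and 405 are numbered. Visceral samples lie lower in both panels, and the control visceral mean moves from -3.90 to -3.58.

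No diet difference of miR-204 was called in subcutaneous fat, and the one called in visceral fat was no longer called once both probes were summed on every array. In subcutaneous fat the difference, high fat minus control, was 0.18 on the log2 scale (standard error 0.243, 95% interval -0.32 to 0.68, limma adjusted p = 0.516). Without the subcutaneous sample of steer 108 it was 0.01 (limma adjusted p = 0.999). Summing all probes left it at 0.18 (standard error 0.225, limma adjusted p = 0.487).

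In visceral fat the difference of the deposited totals was 0.65 (standard error 0.243, 95% interval 0.15 to 1.14, limma adjusted p = 0.0188), and the exact two-sided permutation test gave p = 0.0432. With the sum of all probes it was 0.33 (standard error 0.225, 95% interval -0.13 to 0.79, limma adjusted p = 0.201), and the exact permutation test gave p = 0.224. The brighter probe alone gave 0.32 and the dimmer one 0.39, with limma adjusted p = 0.215 and 0.154. Part of the difference of the totals thus lay in which probes were added up. Single samples also decided this call. Without the visceral sample of control steer 108 the totals gave 0.53 (limma adjusted p = 0.0512). Without that of control steer 405, the highest of its group, the sum of all probes gave 0.52 (limma adjusted p = 0.0182) and the totals gave 0.88 (limma adjusted p = 0.000146).

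The size and direction of the diet difference also rested on the scaling. Relative to the median of the 91 miRNAs detected on all arrays, which moved by -0.91 in subcutaneous and -0.80 in visceral fat, the totals of miR-204 were 1.09 and 1.44 higher, at the 69.2 and 72.5 percentile of the 91 differences. By the sum of probes it was 1.10 and 1.28 higher than the median, at the 69.2 and 68.1 percentile. Scaled to the labelling spike-ins instead, the totals were 3.34 higher in subcutaneous and 3.52 higher in visceral fat in high fat steers, and the sums of probes 3.34 and 3.20 higher. Scaled to the 75th percentile of all miRNAs on the array the differences were -3.96 and -3.80 by the totals and -3.96 and -4.12 by the sums. The distance to the median cannot change between these scalings, since each moves all miRNAs of an array by the same amount. These scalings moved most miRNAs one way. Of all miRNAs tested in subcutaneous fat, 97 were called higher and 80 lower by the main scaling, 216 and 1 by the spike-ins, and 26 and 158 by the percentile over the whole array. In visceral fat these counts were 98 and 69, 181 and 1, and 21 higher of 165 calls.

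**Figure D3:**
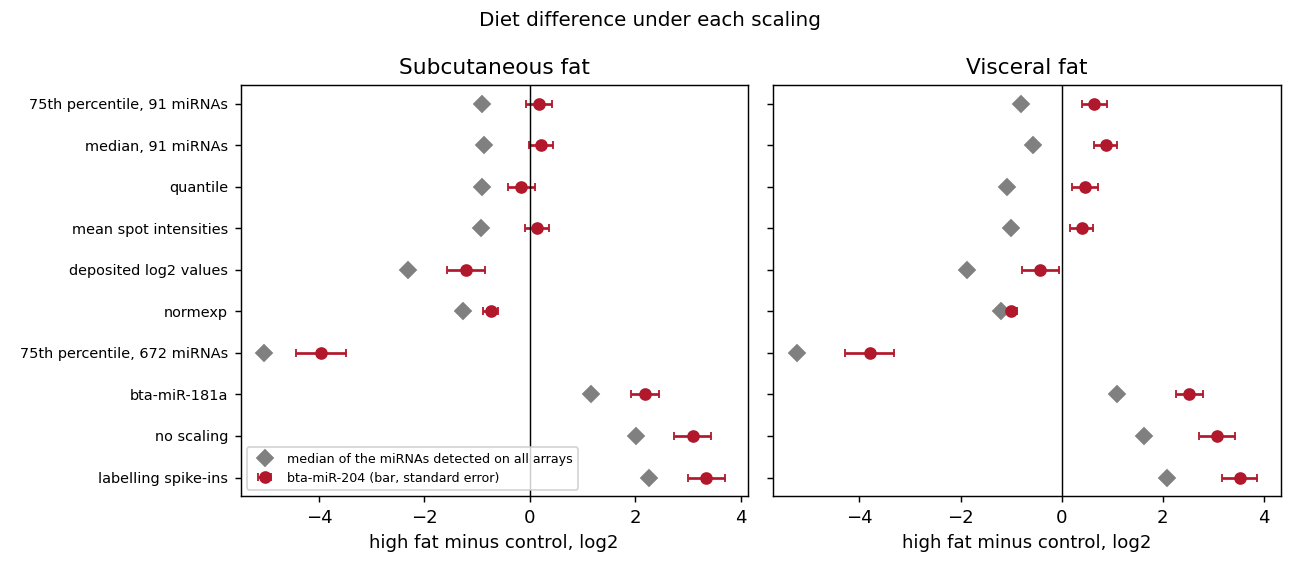
Diet difference, high fat minus control on the log2 scale (horizontal axis), of the deposited miR-204 total (circles with standard error) and the median of the miRNAs detected on all arrays (diamonds), in subcutaneous and visceral fat under 10 ways of scaling or correcting the arrays. MiR-204 lies on both sides of 0 but above the median in each of them. Scalings that shift all miRNAs of an array by the same amount leave this distance almost unchanged by construction. With normexp it was 0.53 in subcutaneous and 0.19 in visceral fat.

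The fall from subcutaneous to visceral fat, on which miR-204 was selected, was seen in all but 1 steer. In control steers visceral minus subcutaneous was -1.47 ± 0.773 (SD, n = 8 steers) by the totals, 2.76-fold lower in visceral fat. With both probes summed it was -1.15 ± 0.685 (SD, n = 8), 2.22-fold lower, running from -1.997 through a median of -1.20 to 0.11. It was below 0 in 7 of 8 steers, the exception being steer 405. The miR-196a of this steer was at -2.12 in visceral fat and not detected in subcutaneous fat. In high fat steers visceral minus subcutaneous was -0.998 ± 0.457 (SD, n = 8), 2.0-fold lower, by either measure. It ran from -1.48 through -1.18 to -0.17 and was below 0 in 8 of 8 steers. The depots did not overlap in high fat steers, and in control steers they overlapped through the subcutaneous sample of steer 108 and the visceral sample of steer 405. Without that sample of steer 108 the control difference was -1.63 by the totals and -1.32 by the sum of probes. Without that of steer 405 it was -1.70 and -1.34. Among the 91 miRNAs detected on all arrays, with probes summed, this difference ranked 2 from the lowest in control steers, with and without that sample of steer 108, and 6 in high fat steers. On high fat arrays the endothelial markers miR-126 and miR-126* had summed scaled intensities of 3.57 to 4.84 in subcutaneous and 5.09 to 8.23 in visceral fat, and on control arrays of 0.578 to 1.501 and 0.863 to 2.42. The summed intensities of the adipocyte markers were higher in visceral fat too. Their medians were 1.71 in subcutaneous and 2.66 in visceral fat on control arrays, and 1.70 and 3.04 on high fat arrays. For the blood cell markers these medians were 0.306 and 0.392, and 0.366 and 0.309. The part of these markers in the differences of miR-204 was not tested.

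**Figure D4:**
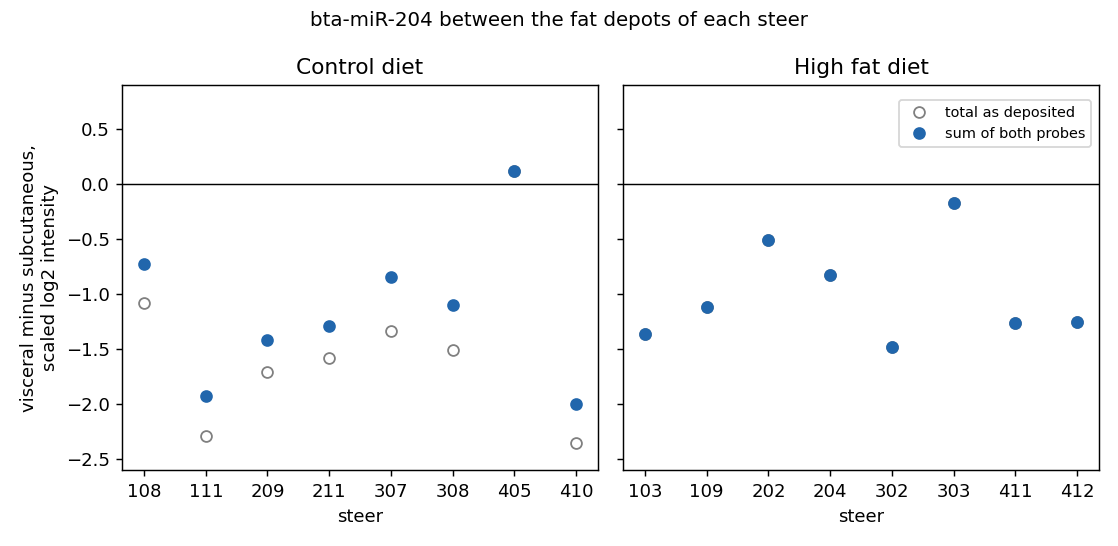
Visceral minus subcutaneous scaled log2 intensity of miR-204 (vertical axis) in each of the 8 steers of a diet (horizontal axis, steer number), from the deposited totals (open circles) and the sum of both probes (filled; they cover the open ones where both are equal). All steers but 405 lie below 0, and 7 control steers lie less far below it with both probes summed.

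Whether this fall differed between the diets was tested, since the rule did not use it. It was smaller in high fat steers by 0.47 by the totals (standard error 0.344, 95% interval -0.23 to 1.17, limma adjusted p = 0.658), and the exact permutation test over steers gave p = 0.163. With all probes summed the difference was 0.15 (standard error 0.318, 95% interval -0.50 to 0.80, limma adjusted p = 0.940), and the exact permutation test gave p = 0.615. MiR-204 was thus not among the 4 of 233 miRNAs, 1.72%, whose depot difference changed with diet. Without the subcutaneous sample of steer 108 the difference by the sum of probes was 0.32 (limma adjusted p = 0.742).

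The miRNAs that varied most like miR-204 were chosen by their Pearson r over the 32 arrays, among the 91 detected on all of them. By the totals they were miR-23a (r = 0.768), miR-125b (0.762), miR-199a-3p (0.707), miR-199a-5p (0.670) and miR-99a (0.641). With all probes summed the same 5 miRNAs led, with miR-125b first (0.747). After removing the group means, miR-99a led (0.692), followed by miR-125b (0.648), miR-199a-3p (0.633), miR-199b (0.595) and miR-100 (0.569), and the same 5 led with all probes summed. Without the subcutaneous sample of steer 108 the 5 over all arrays were the same by the totals, with r from 0.632 to 0.774, and by the sums. Of the 5 within groups, only miR-99a (0.605) and miR-125b (0.585) were then still among the first 5 by the totals. The first 5 over all arrays also depended on the scaling of the totals. Without scaling and with spike-ins miR-199b was among them and miR-99a ranked 6. With the percentile over all miRNAs on the array miR-214 was among them and miR-199a-5p ranked 22. The arrays share their scaling factor between all miRNAs, so these values are a description only. The 5 miRNAs over all arrays were also chosen by likeness to miR-204, itself selected on its depot difference. Their lower levels in visceral fat are thus partly built in. MiR-199a-5p was lower in visceral fat under both diets, with differences of -1.16 and -1.002, as was miR-199a-3p, with -0.82 and -0.88. MiR-125b differed by -0.60 in control and -0.13 in high fat steers, a change with diet of 0.47 that was not called (limma adjusted p = 0.396).

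**Figure D5:**
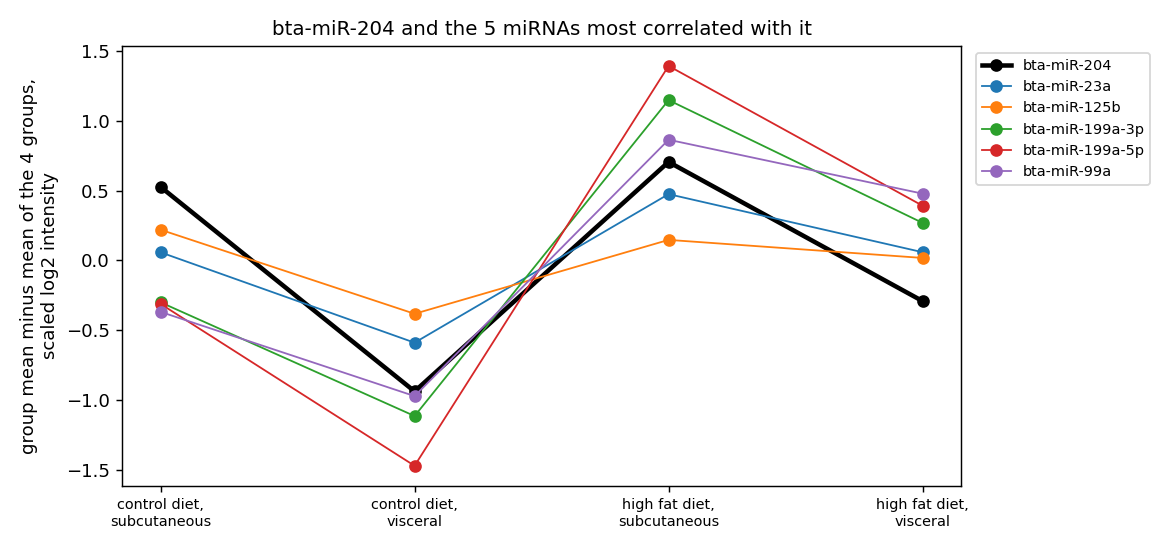
Group means of miR-204 (black) and of the 5 miRNAs most correlated with it over 32 arrays, each minus the mean of its 4 groups, in scaled log2 intensity (vertical axis). All 6 have their lowest mean in control visceral fat, and for miR-125b the highest is in control subcutaneous fat. The 5 were chosen by this correlation, so a course like that of miR-204 is partly built in.

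Of the other miRNAs known to repress RUNX2, 4 of 10 could be tested, against 34.7% of all miRNAs on the array. Of the 10 on the array, 5 (miR-34c, miR-135a, miR-137, miR-205 and miR-217) were detected on no array and miR-218 on 3. Of all miRNAs on the array, 43.9% were detected on at least 1 array. MiR-133a, also tested, was detected on 0 of 8 control subcutaneous and 1 of 8 control visceral arrays. Its diet difference was not called in either depot. In high fat steers miR-23a, miR-30c and miR-338 rose in both depots and none fell, where 41.6% of all miRNAs tested were called higher and 34.3% lower in the subcutaneous depot, and 42.1% and 29.6% in the visceral one. MiR-338 differed by 3.12 and 3.67, values that depend on the floor, since it was detected on 5 of 8 control subcutaneous and 3 of 8 control visceral arrays. MiR-30c differed by 0.94 and 1.68, miR-23a by 0.42 and 0.65, and the median of the 4 was 0.68 and 1.17 against 0.10 and 0.17 over all tested. Scaled to the 75th percentile of all miRNAs on the array, none of the 4 rose and 2 fell in each depot. Most calls were lower under this scaling. Of all 240 miRNAs tested with it, 26 were called higher and 158 lower in subcutaneous fat. In visceral fat 21 of 165 calls were higher. Between the depots, miR-23a was lower in visceral fat in control steers (-0.65, limma adjusted p = 0.00656), where 6.87% of miRNAs were called higher and 12% lower. MiR-30c was higher there in high fat steers (0.58, limma adjusted p = 0.0419), where 11.6% were called higher and 14.6% lower. The call of miR-23a held without that sample of steer 108 (-0.66) and was lost with spike-ins and with the percentile over the whole array. That of miR-30c was lost with the steer as a replicate block (limma adjusted p = 0.0933) and under each of these scalings. For none of the 4 was a change of the depot difference with diet called.

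Other miRNAs are known to promote or to restrain fat cell formation. Between the depots, of 12 pro-adipogenic miRNAs tested, 1 was higher and 0 lower in visceral fat of control steers, and 1 higher and 1 lower in high fat steers, where 6.87% and 12%, and 11.6% and 14.6%, of all miRNAs were. MiR-378, which is encoded within a coactivator gene of fat metabolism, was higher in visceral fat on both diets (0.89 and 1.49, limma adjusted p = 0.000399 and 1.23e-07). MiR-210, which responds to low oxygen, was lower there in high fat steers (-0.70, limma adjusted p = 3.96e-05).

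Of 12 anti-adipogenic miRNAs tested, 2 were higher and 1 lower in visceral fat of control steers, and 1 higher and 3 lower in high fat steers. Of all miRNAs tested, 6.87% and 12%, and 11.6% and 14.6%, were. MiR-27a was listed too but, named miR-27a-3p on the array, was not counted here or below. It differed by -1.29 in control and -0.64 in high fat steers, not called (limma adjusted p = 0.204 and 0.549). MiR-145 was higher on both diets (0.56 and 0.67). In control steers let-7b was higher (0.48) and miR-221 lower (-1.06), and in high fat steers miR-130b (-1.01), miR-155 (-0.71) and miR-222 (-0.66) were lower. The differences of miR-130b, miR-222 and miR-221 depend on the floor, the last being detected on 4 of 8 control visceral arrays. With the steer as a replicate block the control calls of miR-145 and let-7b were lost, and 4 anti-adipogenic members were lower in high fat steers. Without the subcutaneous sample of steer 108 the named control calls held, and miR-107 (0.47) and miR-224 (-1.32) were called as well. In high fat steers miR-107 was called higher with all probes summed (0.39, limma adjusted p = 0.0331). Scaling to the spike-ins or to the percentile over the whole array, or none, left none of the control calls of either list. Of all 240 miRNAs tested, 12, 9 and 27 were called in control steers under these settings. In high fat steers the spike-ins gave 1 higher and 2 lower pro-adipogenic members, and 0 higher and 6 lower anti-adipogenic ones, and without scaling these counts were 0 and 6, and 0 and 8. Over all 240 miRNAs tested, 4 were higher and 87 lower with spike-ins, and 1 and 132 without scaling.

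Between diets, 11 of the 12 pro-adipogenic miRNAs were called higher in high fat steers in each depot, against 41.6% and 42.1% of all miRNAs. The exception was miR-378, which fell by 0.64 in subcutaneous fat and differed by -0.04 in visceral fat. The rises of miR-143, miR-21, miR-30a-5p, miR-17-5p and miR-210 depend on the floor. They were detected on at most 5 of 8 arrays of either control group, and on 8 of 8 in each high fat group. MiR-148a was detected on 7 of 8 control subcutaneous and 6 of 8 control visceral arrays. Scaled to the 75th percentile of all miRNAs on the array, 2 and 1 of the 12 pro-adipogenic miRNAs were higher and 6 and 6 lower. Of all 240 miRNAs tested with it, 26 were higher and 158 lower in subcutaneous fat, and 21 of 165 calls were higher in visceral fat. With all probes summed, 10 and 11 of the pro-adipogenic miRNAs were higher. Among the 12 anti-adipogenic miRNAs 3 rose and 4 fell in subcutaneous samples, and in visceral samples 2 rose and 4 fell, beside 41.6% and 34.3%, and 42.1% and 29.6%, of all miRNAs. With all probes summed, 5 rather than 4 of them fell in subcutaneous samples. Let-7b differed by -2.75 and -3.12. Spike-in scaling turned the counts of anti-adipogenic members to 11 and 0 for the first depot and to 9 and 0 for the second. Of all 240 miRNAs tested with it, 216 were higher and 1 lower, and 181 and 1. The depot difference of 2 list members was called as changing with diet, those of miR-210 (-0.64, limma adjusted p = 0.0318) and miR-130b (-1.01, limma adjusted p = 0.000472). The call of miR-210 was lost with the steer as a replicate block (limma adjusted p = 0.0713) and without the subcutaneous sample of steer 108 (limma adjusted p = 0.0516 by the totals and 0.0525 by the probe sums). On control arrays both were at or near the floor, so these differences depend on it.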

How the data were processed

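Total RNA was labelled with Cy3 and hybridised to 1-colour arrays, 1 per sample. The authors extracted the scans with Feature Extraction and deposited intensities, background subtracted and totalled over the probes of each miRNA, with 0.1 for a miRNA not detected. The deposited log2 values, which the authors normalized to the 75th percentile in GeneSpring, were an alternative. Their features were named by matching values (244 of 244, within 1e-04), and on 18 arrays they were shifted by an array constant.

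Intensities were divided by the 75th percentile over the 91 miRNAs detected on all arrays, set to a floor of -7.22 on the log2 scale, and fitted for miRNAs detected on at least 8 arrays (233 tested) in 1 model of 4 groups with limma 3.58.1 in R 4.3. P-values were Benjamini-Hochberg adjusted over all tested miRNAs, and calls were made at 0.05. Single values had exact two-sided permutation tests, whose smallest possible p was 0.000155. The fit was tested on simulated data. The members and lists were chosen with earlier results of these data known. Named were both members, the list members, and the 5 miRNAs most correlated with miR-204 over arrays and within groups. Depots are paired by the steer in the labels, and same-steer deviations correlated from -0.72 to 0.651, above 0.1 in 6 of 16 steers. No arrays were identical, and the number of arrays limits the precision. Alternatives concerned scaling, signal, floor, filter, test, blocks, single samples and, after seeing the data, the probes summed and the lists and correlations without the subcutaneous sample of steer 108. Mature sequences of the family were not used here.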

Additional observations from a re-analysis of the deposited data

Results flagged for a closer look

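The subcutaneous sample of control steer 108 lay apart from the other 7 of its group, at a scaled log2 intensity of -3.61 for miR-204, with a gap to its nearest neighbour of 0.630 of the group's range. The visceral sample of control steer 405 lay above the rest of its group at -2.26, with a gap of 0.635 of the range. Both gaps exceed Dixon's critical value of 0.526 for 8 samples, and 6 groups of values were examined, of which chance alone would mark about 1 in 20. On the array of steer 405 the total held both probes, unlike on the other 7 arrays of its group. With both probes summed on every array it was again the highest of its group, at -2.26 against -3.35 for the next, but its gap of 0.525 of the range was then just under the critical value. Whether the tissue of either sample was mislabelled was not tested.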

How the results depend on the processing

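In subcutaneous fat the diet difference of miR-204 was 3.09 without scaling, 3.34 with spike-ins and 2.19 with miR-181a as the scale, all past the threshold, and -3.96 with the percentile over all miRNAs on the array, -0.75 with normexp and -1.22 in the deposited log2 values, which were past it in the other direction, and -0.16 with quantile normalization, which was not. In visceral fat it was called at 3.07 without scaling, 3.52 with spike-ins, 2.52 with miR-181a and 0.87 with the median as the scale, called in the other direction at -3.80 with the percentile over all miRNAs on the array and -1.01 with normexp, and not called at -0.42 in the deposited values. It was no longer called with quantile normalization (0.46), mean spot intensities (0.40), the sum of all probes (0.33), that sum without the subcutaneous sample of steer 108 (0.33), the brighter probe (0.32) or the dimmer one (0.39). It stayed at 0.65 with limma on all miRNAs unfiltered (adjusted p = 0.0607) and with the methods' t-test (adjusted p = 0.0597 by Benjamini-Hochberg and 1 by Bonferroni). The change of the depot difference with diet was -0.022 without scaling and -0.27 with normexp. Leaving out each sample in turn gave 0.01 to 0.26 in subcutaneous fat, 0.53 to 0.88 in visceral fat, where leaving out the visceral sample of control steer 108 ended the call, and 0.34 to 0.69 for the change of the depot difference. The depot difference itself was -1.70 to -1.35 in control steers and -1.08 to -0.95 in high fat steers, and normexp brought it to -0.15 and -0.41. With the steer as a replicate block the change of the depot difference was 0.47 (limma adjusted p = 0.632) from the totals and 0.15 from the probe sums, and no call of miR-204 changed. Over all miRNAs tested, depot calls of 16 higher and 28 lower in control steers became 2 and 25 without scaling and 2 and 10 with spike-ins, and 27 and 34 in high fat steers became 1 and 132, and 4 and 87. The 4 calls of a changed depot difference became 27 without scaling, 13 with spike-ins and 9 with all probes summed. In the 3 miRNA lists the 12 depot calls became 2 with the percentile over the whole array and 4 in the deposited values, and the 2 calls of a changed depot difference became 4 without scaling, 0 in the deposited values, and 1 each with the steer as a replicate block and without the subcutaneous sample of steer 108, by totals or probe sums. Over all miRNAs tested, the percentile over the whole array gave 9 depot calls in control and 9 in high fat steers. The deposited values gave 31 and 14, and 3 calls of a changed depot difference. Causes other than the probes summed were not tested. MiR-211 was counted on 3 arrays when 1 spot well above background sufficed. The Feature Extraction error of the miR-204 signal was 8.36 to 24.6% on control and 8.11 to 9.22% on high fat arrays.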
